A study of Mus musculus with 10 samples.

Results

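A cluster of zinc-finger genes lies on the same chromosome as Prdm16, some megabases before it, and its expression differed between control and Prdm16SMKO aortas. The cluster was taken here as the genes of the deposited expression table that lie wholly on mouse chromosome 4 between 145000000 and 147900000 (GRCm38, GENCODE vM21) and were listed above 0 in 1 or more aortas. The values are TPM, an expression level corrected for transcript length and library total. Of 94 genes of the table wholly inside this stretch of 2.9 Mb, 61 were detected, among 26228 detected genes in all, and the other 33 were listed at 0 in all 6 aortas. The 61 genes comprised 24 protein-coding genes, 34 pseudogenes, and 3 lincRNAs. The lowest of them, Gm13231, was at 0.03 TPM in 1 aorta and at 0 in the others, and the 33 left out by level were at 0 throughout. By position, Vps13d and Mfn2 cross the ends of the stretch and were left out, with 34.8 to 56.5 TPM and 33.1 to 51.9 TPM over the 6 aortas. The stretch was selected on the TPM of control against Prdm16SMKO aortas, whose difference was already known, so the comparison of control with Prdm16SMKO aortas is a description of these genes and not independent evidence about them.

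KRAB zinc-finger proteins form the largest family of transcriptional repressors in mammals. Their tandem C2H2 fingers bind DNA, often in transposable elements, and their KRAB domain recruits TRIM28 (KAP1), which brings histone methyltransferases and heterochromatin proteins to the bound site. The genes arise by duplication, sit in clusters of near-identical copies mixed with pseudogenes, and differ in copy and sequence between mouse strains; the cluster on distal mouse chromosome 4 is a young one of this kind.

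RNA-Seq had been done on thoracic aortas of 3 control mice, labelled Prdm16f/f, and 3 Prdm16SMKO mice, labelled Prdm16f/f, SMMHC-CreERT2. Both labels therefore carry the floxed Prdm16 allele, and the Prdm16SMKO mice carry in addition a tamoxifen-inducible Cre recombinase driven by the smooth muscle myosin heavy chain promoter, which sits in a transgene on the Y chromosome. According to the methods of the study, tamoxifen was given to induce deletion, mice with floxed alleles or with Cre served as controls, and the strains were kept on a C57BL/6J background; the labels give no age. ChIP-Seq had been done on primary vascular fibroblasts labelled wild type, which received lentivirus (48 hours) with a Flag-tagged PRDM16 insert or with none and were then kept in puromycin (2 μg/mL) over 1 week. There was 1 anti-Flag library each, so that no peak value has a replicate.

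Prdm16 (ENSMUSG00000039410), a zinc-finger transcriptional regulator, was measured first, as the targeted gene. Control aortas 1 to 3 had 56.1, 47.6, and 40.3 TPM, and Prdm16SMKO aortas 1 to 3 had 23.3, 33.3, and 23.4 TPM. All 3 Prdm16SMKO values were below all 3 control values, and the log2 fold change was −0.85 with a standard error of 0.18 and an adjusted P of 0.072. Adjusted P values are Benjamini-Hochberg values from limma over all 15668 genes whose TPM averaged 0.5 or more, fitted on log2(TPM + 0.1), and an adjusted P under 0.05 is called a change. The summed TPM of 7 smooth muscle markers was between 20451 and 23756 in the controls and between 13643 and 17600 in the Prdm16SMKO aortas, without overlap, so the tissue label held in both groups; none of the 7 was listed at 0 in all aortas. The summed levels of the lists for brown and white adipocytes, skeletal muscle, blood, macrophages, fibroblasts, endothelium, and lymphocytes overlapped between the groups. In whole aorta, fewer cells of a type and less RNA per cell cannot be told apart, and the part of this difference in smooth muscle markers in the results below was not tested. Across all tested genes the median log2 fold change was −0.12, and it was 0.00024 after rescaling each aorta by median ratios. The limma adjusted P of Prdm16 was 0.023 after this rescaling, 0.033 after quantile normalization, and 0.040 without Prdm16SMKO aorta 2. Under the other alternative settings it was between 0.059 and 0.23, so whether Prdm16 is called depends on the setting.

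Of the 61 genes, 21 reached this level and were tested, 12 protein-coding genes, 7 pseudogenes, and 2 lincRNAs. Of these, 8 passed the threshold, 7 lower and 1 higher in the Prdm16SMKO aortas, beside 1.07% of all genes tested (0.683% lower and 0.389% higher). In 11 of the 21 all 3 Prdm16SMKO values lay below all 3 control values, and in 1 they lay above; over all genes tested the same held for 14.9% and 4.08%. A gene expressed in one group only can pass the minimum level only by that group, so such a gene had to differ once it was tested. The tested genes were expressed at low levels, with means from 0.745 to 6.79 TPM.

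**Figure D1:**
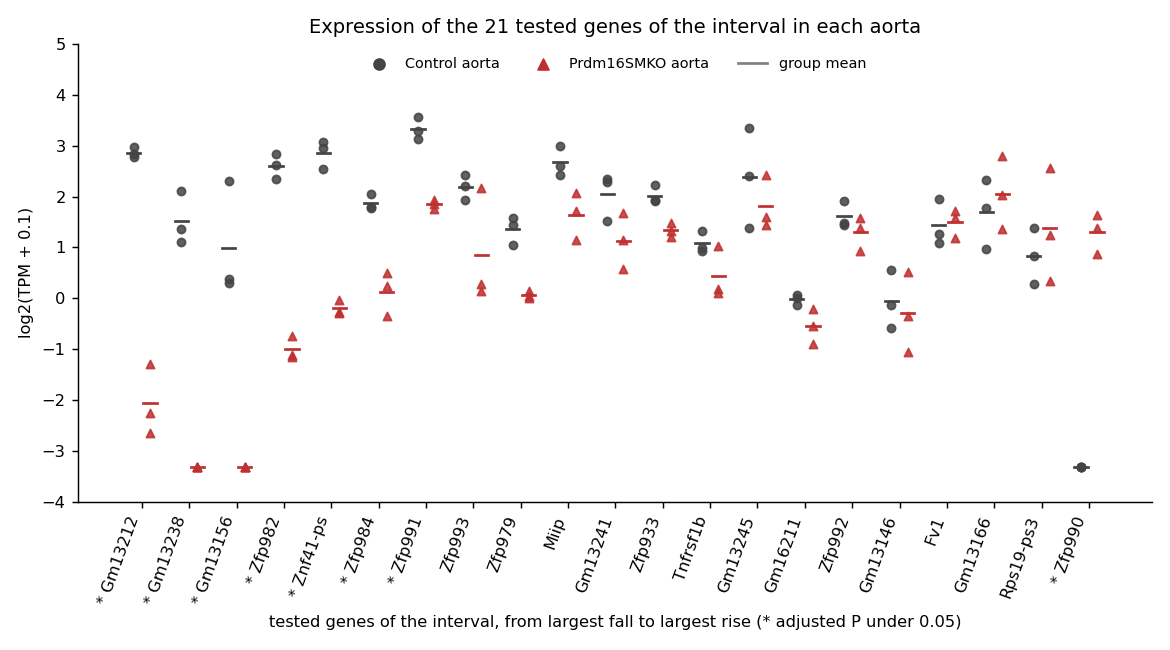
Expression on the log2(TPM + 0.1) scale (y axis) of the 21 tested genes of the interval (x axis), with 1 point per aorta, circles for the 3 controls, triangles for the 3 Prdm16SMKO aortas, and short lines for group means; an asterisk marks an adjusted P under 0.05. Gm13238 and Gm13156 sit at the bottom of the axis, a TPM of 0, in all 3 Prdm16SMKO aortas, and Zfp990 does so in all 3 controls.

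The deepest falls among genes with fingers were those of Gm13212 and Zfp982. Gm13212 (ENSMUSG00000078502; chromosome 4, 145585166 to 145625345, forward strand) encodes a KRAB protein with 20 C2H2 finger matches in its coding sequence, the most in the cluster. Its TPM was 7.71, 6.72, and 7.03 in controls 1 to 3 and 0.11, 0.06, and 0.31 in the Prdm16SMKO aortas. The Prdm16SMKO mean was 2.24% of the control mean, which is −4.92 on the log2 scale (SE 0.41, adjusted P = 0.0012); every Prdm16SMKO value was below 0.5 TPM. Zfp982 (ENSMUSG00000078496; chromosome 4, 147492417 to 147513486, forward strand), a KRAB gene with 7 finger matches, had TPM of 7.01, 4.99, and 6.07 in the controls and 0.50, 0.35, and 0.36 in the Prdm16SMKO aortas. Its mean in the Prdm16SMKO aortas was 6.70% of that in the controls (log2 fold change −3.60, SE 0.29, adjusted P = 0.0012).

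Zfp990 (ENSMUSG00000078503; chromosome 4, 145510759 to 145539188, forward strand), a KRAB gene with 13 finger matches, went the other way. It was listed at 0 in all 3 control aortas and at 2.50, 3.02, and 1.73 TPM in the Prdm16SMKO aortas (adjusted P = 0.010). It reached the minimum level by the Prdm16SMKO group alone, so a difference was bound to appear once it was tested. No fold change is given for it, because a fitted value against a group at 0 depends on the pseudocount. Zfp990 and Gm13212 lie near each other on the same strand, and they moved in opposite directions.

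Zfp991 and Zfp984 fell by less. Zfp991 (ENSMUSG00000067916; chromosome 4, 147132038 to 147180579, forward strand), a KRAB gene with 11 finger matches and the highest mean level of the cluster, had TPM of 11.8, 9.74, and 8.66 in the controls and 3.54, 3.30, and 3.71 in the Prdm16SMKO aortas, which is −1.48 on the log2 scale (SE 0.18, adjusted P = 0.0074). Zfp984 (ENSMUSG00000078495; chromosome 4, 147753974 to 147809788, reverse strand), also a KRAB gene with 11 finger matches, had TPM of 3.38, 3.32, and 4.07 in the controls and 1.31, 1.08, and 0.69 in the Prdm16SMKO aortas (log2 fold change −1.75, SE 0.30, adjusted P = 0.032). The groups did not overlap for either gene, but Zfp984 lost its call in 5 of 6 fits with 1 aorta left out, where its adjusted P ranged up to 0.13.

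The other called genes were pseudogenes. Znf41-ps (ENSMUSG00000084350; chromosome 4, 145825237 to 145829942, forward strand), an unprocessed zinc-finger pseudogene, had TPM of 8.37, 7.66, and 5.75 in the controls and 0.73, 0.88, and 0.72 in the Prdm16SMKO aortas (log2 fold change −3.06, SE 0.24, adjusted P = 0.0012). Gm13238 (ENSMUSG00000096233), a processed pseudogene at 145837219 to 145837998, had TPM of 2.47, 2.04, and 4.23 in the controls and was listed at 0 in all 3 Prdm16SMKO aortas (adjusted P = 0.0079). Gm13156 (ENSMUSG00000083340), a processed pseudogene at 147893673 to 147893993, had TPM of 1.13, 4.87, and 1.20 in the controls and was listed at 0 in all 3 Prdm16SMKO aortas (adjusted P = 0.042), and control 2 stood above the others. It lies within the span of Mfn2, so reads of the 2 genes may not be separable. Without control 2 it fell under the minimum level, and it lost its call in each of the other 5 fits with 1 aorta left out. In the whole table, 14 genes were at 0 in 1 whole group and at 1 TPM or more in every aorta of the other, and Zfp990, Gm13238, and Gm13156 were 3 of them. Each of these 3 reached the minimum level by 1 group only, so its adjusted P is no independent support for a difference.

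Among the genes named for their level or for groups that did not overlap, several did not pass the threshold. Zfp979, a KRAB gene with 3 finger matches, had TPM of 2.63, 2.90, and 1.98 in the controls and 0.90, 0.93, and 1.00 in the Prdm16SMKO aortas, separate groups with an adjusted P of 0.084. Zfp933, a KRAB gene with 12 finger matches, had TPM of 4.58, 3.66, and 3.70 against 2.21, 2.40, and 2.68, again separate, with an adjusted P of 0.21. Zfp993, a KRAB gene with 2 finger matches, had TPM of 4.53, 3.70, and 5.25 in the controls and 1.00, 4.38, and 1.11 in the Prdm16SMKO aortas. Prdm16SMKO aorta 2 alone stood within the control range for this gene, whose adjusted P was 0.30 over all aortas. With any other aorta left out the limma adjusted P was 0.44 to 0.60. It was 0.021 without Prdm16SMKO aorta 2, but that aorta is singled out here by its own value, so this P is no support for a fall. Prdm16SMKO aorta 2 also had the highest Prdm16 level of its group. Other genes of the interval went either way in this aorta. Miip was the highest of its group at 4.11 TPM, toward the controls. Gm13212 was the lowest at 0.06 TPM and Zfp990 the highest at 3.02 TPM, both away from the controls. A link with the Prdm16 level was not tested.

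The other named genes of the interval encode no matched fingers, and none of them passed the threshold. Miip, which encodes a protein known to inhibit cell migration and invasion, had TPM of 7.90, 5.97, and 5.30 in the controls and 3.19, 4.11, and 2.11 in the Prdm16SMKO aortas, separate groups with an adjusted P of 0.14. Tnfrsf1b, a receptor for tumor necrosis factor, had TPM of 2.41, 1.89, and 1.81 against 1.03, 0.98, and 1.93, which overlapped (adjusted P = 0.47). The study's own differential expression analysis, by contrast, listed Tnfrsf1b as lower in the Prdm16SMKO aortas. The processed pseudogene Gm13245 had TPM of 10.1, 5.21, and 2.51 against 5.29, 2.93, and 2.60, the processed pseudogene Gm13241 4.81, 5.0, and 2.77 against 2.11, 3.11, and 1.39, and the lincRNA Gm13166 3.32, 1.85, and 4.93 against 3.98, 2.47, and 6.82. The groups overlapped for all 3, with adjusted P values of 0.65, 0.30, and 0.76. The remaining tested genes were Zfp992, Fv1 (a retrovirus restriction gene), Gm13146, Gm16211, and Rps19-ps3, with log2 fold changes between −0.52 and 0.56 and adjusted P values of 0.65 or more.

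The other 40 genes stayed under the minimum level, with a highest single value of 1.42 TPM and a highest mean of 0.293 TPM. Of these, 14 were above 0 in controls only, 11 in Prdm16SMKO aortas only, and 15 in both groups. Their groups did not overlap in 3 cases, Zfp986 lower and Gm13233 and Zfp978 higher in the Prdm16SMKO aortas, named after their values were seen and all under 0.5 TPM. That is 3 of 40, beside 6.19% of all detected genes under the minimum level (3.18% lower and 3.01% higher). Among the KRAB genes at these low levels were Zfp600 with 17 finger matches, Rex2 and Zfp534 with 15 each, Zfp987 and Zfp988 with 14 each, and Zfp980 with 13. By contrast, Gm13212, with 20, stood at 7.15 ± 0.506 TPM in the controls (SD, n = 3).

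Summed over all 61 genes, TPM was 98.4, 81.5, and 77.5 in controls 1 to 3 and 39.0, 44.3, and 41.7 in the Prdm16SMKO aortas. The means were 85.8 ± 11.1 and 41.7 ± 2.69 (SD, n = 3 each), a difference of −1.04 on the log2 scale, beside −0.12 for the median of all tested genes. The 19 zinc-finger genes, those with at least 3 finger matches or a symbol starting with Zfp, summed to 45.8, 38.7, and 39.8 in the controls and 15.01, 19.2, and 13.6 in the Prdm16SMKO aortas, that is 41.4 ± 3.84 and 15.9 ± 2.90 (SD, n = 3 each). This is 38.4% of the control level and −1.39 on the log2 scale. The 42 other genes summed to 44.3 ± 7.56 and 25.7 ± 2.14 (SD, n = 3 each), −0.77 on the log2 scale. These 42 include the zinc-finger pseudogene Znf41-ps, with means of 7.26 TPM in the controls and 0.777 TPM in the Prdm16SMKO aortas. Their sum is therefore not free of zinc-finger sequence. No test was made on the sums, since the genes were chosen for this contrast.

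**Figure D2:**
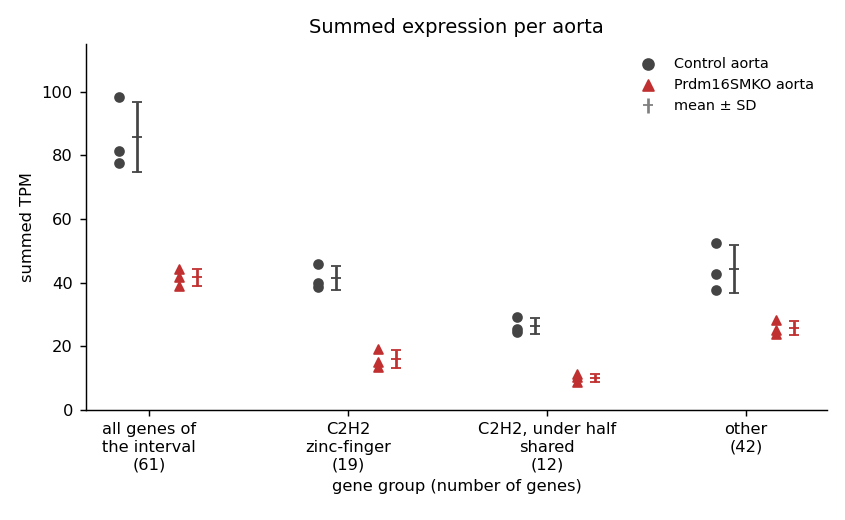
Summed TPM per aorta (y axis) for gene groups of the interval (x axis, number of genes in parentheses), circles for controls, triangles for Prdm16SMKO aortas, bars for mean ± SD of 3. The 3 Prdm16SMKO aortas lie below the 3 controls in each group, at 15.9 against 41.4 for the zinc-finger genes.

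Near-identical copies can share reads, so the level of a single gene of the cluster can depend on how the authors' counting divided them. The share of 100-base stretches of a gene's annotated transcripts that also occur in another annotated gene was 3.06% for Zfp982, 3.60% for Zfp990, and 27.4% for Gm13212, most of the last with Zfp984. It was 30.9% for Zfp984, 67.8% for Gm13238, 70.3% for Zfp991, and 77.3% for Znf41-ps, and 56.9% of the Zfp991 stretches were those of Znf41-ps. The values of Zfp991, Znf41-ps, and Zfp993 (71.9%, most with Zfp991) are uncertain for this reason. Gm13156, Zfp933, Miip, Tnfrsf1b, and Fv1 shared none. Over the 12 zinc-finger genes that shared less than 50% of their stretches, TPM summed to 26.3 ± 2.44 in the controls and 10.1 ± 1.24 in the Prdm16SMKO aortas (SD, n = 3 each), 38.2% of the control level. In addition, 36 of the 61 genes overlap another annotated gene by their whole spans, introns included. Overlap of exons was not counted. Where exons of a pair do overlap, their reads may not be separable, since the counting is not stated to use strand.

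**Figure D3:**
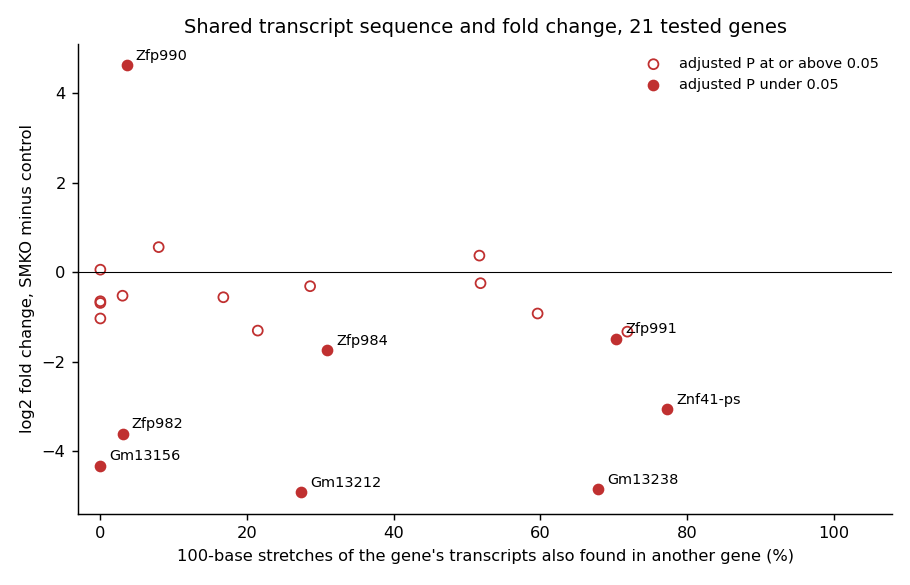
Log2 fold change, Prdm16SMKO minus control (y axis), against the percentage of each gene's 100-base transcript stretches found in another gene (x axis), 1 point per tested gene, filled where the adjusted P was under 0.05. Called genes lie at both ends, with Zfp982 at 3.06% and Znf41-ps at 77.3%; the positions of Zfp990, Gm13238, and Gm13156, each at 0 in 1 group, depend on the pseudocount.

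The genes share upstream sequence as well. RefSeq promoters (GRCm38.p6) were given for 18 of the 61 genes, 14 of them zinc-finger genes. Over the 250 bases before the start site, Gm13212 and Zfp984 were identical at 90.8% of the length, and both were called lower. Rex2 and Zfp979 were identical at 96.4%, although Rex2 was listed at 0.02, 0.06, and 0.30 TPM in the controls while Zfp979 stood at 1.98 to 2.90. The aligned parts outside the annotated span of the gene itself are shown for these pairs. The Rex2 stretch still lies within the span of Gm26573, and the Zfp984 stretch reaches into that of Gm20707. Lines run 5′ to 3′ on the strand of the gene, with the bases that differ within a pair or have no partner in capitals.
Gm13212 (chr4:145584960-145585165, forward strand): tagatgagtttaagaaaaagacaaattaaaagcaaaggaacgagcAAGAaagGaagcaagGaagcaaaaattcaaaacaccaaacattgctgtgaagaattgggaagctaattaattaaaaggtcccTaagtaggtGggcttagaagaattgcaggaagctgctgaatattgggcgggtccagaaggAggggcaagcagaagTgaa
Zfp984 (chr4:147809832-147810038, reverse strand): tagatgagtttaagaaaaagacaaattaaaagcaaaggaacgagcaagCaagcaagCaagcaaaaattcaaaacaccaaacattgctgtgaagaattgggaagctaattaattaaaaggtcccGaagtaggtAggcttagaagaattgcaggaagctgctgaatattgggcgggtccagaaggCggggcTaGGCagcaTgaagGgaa
Rex2 (chr4:147021606-147021849, forward strand): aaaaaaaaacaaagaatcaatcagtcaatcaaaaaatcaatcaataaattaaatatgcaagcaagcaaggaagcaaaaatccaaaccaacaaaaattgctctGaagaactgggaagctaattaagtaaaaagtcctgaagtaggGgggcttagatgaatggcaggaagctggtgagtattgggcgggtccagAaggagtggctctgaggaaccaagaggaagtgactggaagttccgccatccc
Zfp979 (chr4:147642515-147642758, reverse strand): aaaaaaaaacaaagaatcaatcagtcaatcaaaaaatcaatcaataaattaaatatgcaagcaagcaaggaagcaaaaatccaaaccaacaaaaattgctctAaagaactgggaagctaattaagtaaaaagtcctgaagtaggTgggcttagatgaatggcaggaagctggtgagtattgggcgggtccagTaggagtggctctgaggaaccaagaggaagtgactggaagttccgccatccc
The first pair differs at 10 bases of the Gm13212 line and 11 of the Zfp984 line, and the second pair at 3 bases of 244.

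The interval ends 6.42 Mb before Prdm16, and its neighbors and other zinc-finger genes were set beside it. Between it and Prdm16, 72 genes were tested and 2 were called, both lower, with a median log2 fold change of −0.16; 21 had an unadjusted P under 0.05, and 0 to 6 were called under the other settings. In the stretch of equal length just before it, 2 of 6 tested genes were called, both lower. Within 20 Mb of the Prdm16 start site, 13 of the 226 tested genes outside the interval were called (5.75%), all lower. Of these, 7 were among the 31 tested genes 12 to 15 Mb before it. That window was chosen after the calls were seen, so its count only describes where they lie. Genes outside the interval whose symbols start with Zfp numbered 351 tested, with a median log2 fold change of −0.13; limma called 0 of them, 23 had an unadjusted P under 0.05, and up to 3 were called under another setting. By their labels both groups carry the floxed allele, but the columns of the expression table call the controls WT, so which chromosome 4 the control aortas carried around Prdm16 is not settled by the sources used here. If the groups differed in it, the deletion and the stretch of chromosome 4 inherited with the allele cannot be told apart.

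**Figure D4:**
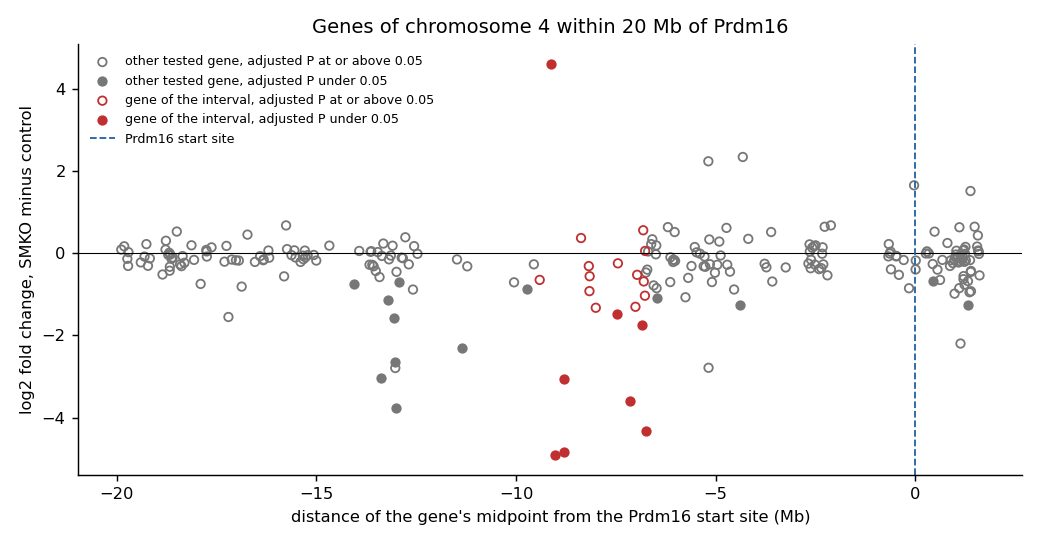
Log2 fold change, Prdm16SMKO minus control (y axis), of the tested genes of chromosome 4 within 20 Mb of the Prdm16 start site against the distance of the gene's midpoint from it in Mb (x axis), red for the interval, gray for other genes, filled where the adjusted P was under 0.05. Of the 21 genes called in this window, 8 lie in the interval. Another 7 lie 12 to 15 Mb before Prdm16, a stretch chosen after the calls were seen. The positions of Zfp990, Gm13238, and Gm13156 depend on the pseudocount.

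The proteins through which KRAB domains act were listed separately, and 20 of 21 listed cofactor genes were tested. Of these, limma called 0, and 2 had an unadjusted P under 0.05, both lower; no alternative setting called any. Trim28, the direct partner of the KRAB domain, had TPM of 56.7, 48.5, and 48.1 in the controls and 39.9, 45.4, and 40.0 in the Prdm16SMKO aortas, groups that did not overlap (log2 fold change −0.29, SE 0.12, adjusted P = 0.37). Setdb1, the histone methyltransferase that TRIM28 recruits, had TPM of 10.7, 7.14, and 6.97 against 7.46, 9.23, and 8.63, which overlapped (log2 fold change 0.05, SE 0.20, adjusted P = 0.95). The median log2 fold change of the list was −0.12, beside −0.12 for all tested genes.

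In the fibroblast ChIP-Seq, 10 PRDM16 Flag peaks were centered in the interval, 3.45 per Mb beside 4.19 on chromosome 4 and 4.13 on the assembled chromosomes. They were weak, with a fold enrichment at the summit between 2.25 and 5.63 and a median of 2.98, beside a median of 5.27 over all peaks. A peak within 2 kb of an annotated start site was found for 3 of the 61 genes (4.92%), beside 28.6% of all detected genes, and none of the 8 called genes was among them. The 3 were Tnfrsf1b, with the strongest peak of the interval (145246335 to 145246828, 5.63-fold), and the processed pseudogenes Gm13169 and Gm13233. Although not called here, Tnfrsf1b is listed by the study as a lower gene with this peak at its promoter. Gm13169 was above 0 in 1 aorta, control 3, at 0.11 TPM, and Gm13233 was at 0 in the controls and at 0.42, 0.29, and 0.38 TPM in the Prdm16SMKO aortas. The shares of 4.92% and 28.6% are not from like sets, since 34 of the 61 genes are pseudogenes and 40 stayed under the minimum level. Whether near-identical promoters hindered the placing of reads was not tested. The low share therefore does not show that PRDM16 is absent from these promoters.

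**Figure D5:**
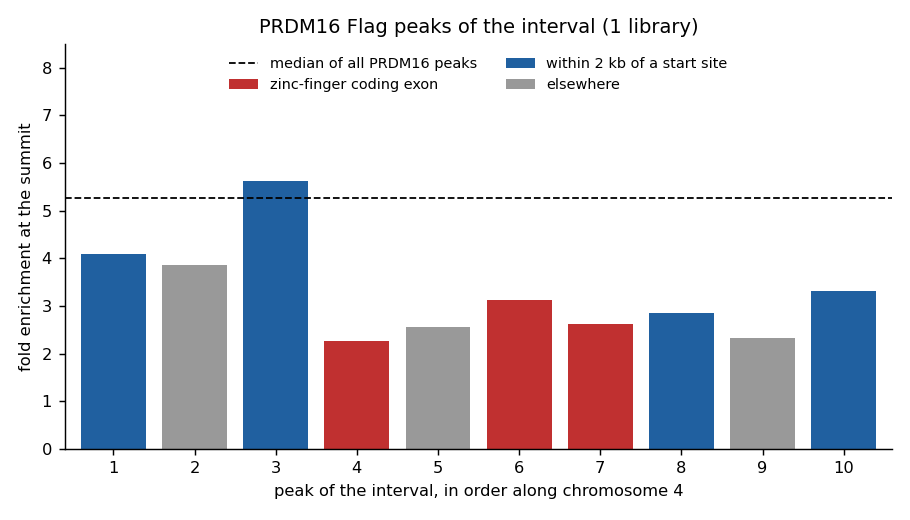
Fold enrichment at the summit (y axis) of the 10 PRDM16 Flag peaks of the interval in order along chromosome 4 (x axis), from 1 library, colored by position; the dashed line is the median of all PRDM16 peaks, 5.27. Peak 3, at Tnfrsf1b, is above the line at 5.63, and the 3 peaks in zinc-finger coding exons lie between 2.25 and 3.12.

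Of the 10 peaks, 3 lay inside zinc-finger coding exons, those of Zfp990 (145537613 to 145537885), Zfp987 (146124932 to 146125332), and Zfp600 (146195742 to 146195989), with fold enrichments of 2.25, 3.12, and 2.62. The nearest start sites of these genes were 22865, 27787, and 33956 bases away. The 3 peaks are copies of one another, 86.2% to 92.6% identical over their aligned bases, and 75.4% to 99.3% of their bases are masked as repeats in the reference. The commonest spelling of the Gly-Glu-Lys-Pro linker between fingers, GGAGAGAAACC, made up 162 of 170 such linkers in the coding sequences of 18 zinc-finger genes of the interval. Linkers with other residues were not counted. A stretch of 121 bases with the summit of each peak is shown on the forward strand of GRCm38, with this spelling in capitals.
Zfp990 (chr4:145537765-145537885): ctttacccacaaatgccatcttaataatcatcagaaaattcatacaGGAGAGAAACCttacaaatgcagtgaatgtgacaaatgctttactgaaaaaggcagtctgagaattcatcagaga
Zfp987 (chr4:146125166-146125286): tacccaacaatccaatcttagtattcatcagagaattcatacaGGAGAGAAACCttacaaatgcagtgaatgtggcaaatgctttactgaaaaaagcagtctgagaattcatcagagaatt
Zfp600 (chr4:146195742-146195862): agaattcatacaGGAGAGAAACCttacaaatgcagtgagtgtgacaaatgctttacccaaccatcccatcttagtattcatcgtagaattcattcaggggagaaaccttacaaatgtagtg

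Searched on both strands, the linker spelling was present in 3 of the 10 peaks of the interval and in 12 of 11248 other PRDM16 peaks (0.107%). It was present in 4 of those 11248 regions after a shift of 5 kb (0.0356%). In the library without a PRDM16 insert, 1 of 41 peaks on assembled chromosomes held it (2.44%). The spelling was taken from the coding sequences of these same genes, so its presence in peaks inside their exons is no independent result. The −log10 q of the 3 peaks was 2.49 to 2.50, so that at a q of at most 0.001 none of them was left among the 5 peaks of the interval. The interval holds 280 copies, which is 64.5% of the 434 on chromosome 4 in 1.85% of its length, and 176 of them lie in coding exons. The vector library, which had no PRDM16 insert, had 67 peaks in all and a single one on chromosome 4. That peak (145537531 to 145537782, 2.94-fold) lies in the interval, in the same Zfp990 exon, and shares 170 bases with the PRDM16 peak there. Of the genes with exon peaks, Zfp990 was at 0 in controls and expressed in Prdm16SMKO aortas, whereas Zfp987 and Zfp600 were at 0.43 TPM or less in every aorta.

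The peaks at Gm13169 (146239653 to 146240106, 2.84-fold) and in front of Gm13233 (146580391 to 146580623, 3.32-fold) are another pair of copies, identical at all 233 aligned bases. Reads of such copies cannot be placed by sequence alone, and how the mapping treated them is not given in the sources used here. The first bases of the shared stretch are rich in CG, shown in capitals.
Gm13233 peak (chr4:146580391-146580511, forward strand): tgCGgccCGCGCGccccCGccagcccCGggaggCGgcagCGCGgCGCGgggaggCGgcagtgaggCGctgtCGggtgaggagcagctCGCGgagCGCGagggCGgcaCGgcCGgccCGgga
Of the remaining peaks, 1 lay at the start of Vps13d (145194709 to 145194979, 4.10-fold), a gene that reaches beyond the interval and is not among the 61, and 3 lay away from any start site at 3.87, 2.56, and 2.32-fold.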

How the data were processed

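Genes and lists were chosen with earlier results of these data known. RNA came from 6 thoracic aortas, with groups taken from the sample titles. The deposited TPM, 1 column for each aorta, were made from poly(A)-selected paired-end libraries; the submitters' processing notes name STAR 2.7.8a, RSEM 1.3.3, and GRCm38 without giving their roles. TPM keep no depth, so no counting interval or count test was used. For ChIP-Seq the authors used bowtie2 for mapping and MACS2 (q of 0.01) for peaks, per library. The PRDM16 Flag list nevertheless holds 437 peaks with a q above 0.01, none of them in the interval. They were kept in the medians, densities, and shares over all peaks. The deposited peak lists give a fold enrichment ratio, −log10 p and −log10 q, and a score, which was not used. The IgG libraries were not analysed here.

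Genes were matched by identifier to GENCODE vM21 (272 of 55426 did not match). The groups were compared in limma 3.58.1 (R 4.3.3) by lmFit and eBayes with a trend on log2(TPM + 0.1), over genes whose TPM averaged 0.5 or more, with Benjamini-Hochberg adjustment over all 15668 genes and a threshold of 0.05. The procedure was tested on simulated data. An exact permutation test of 3 against 3 cannot go under a two-sided P of 0.1 and was not used. Nothing says that the aortas share litters or days. The P values set the difference between the groups against the spread within them, which limma moderates by a trend over all tested genes.

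Named genes are Prdm16, every gene of the interval that was called, the 10 with the highest mean TPM, those with a mean of at least 1 whose groups did not overlap, those with a promoter peak, Trim28, and Setdb1. C2H2 fingers were counted in GENCODE coding sequences read from the GRCm38 genome and translated, as 2 cysteines 2 residues apart, 12 residues, and 2 histidines 3 to 5 residues apart. Shared 100-base stretches were counted over all GENCODE transcripts. Peaks were placed by their centre, promoters reach 2 kb from any annotated start site, and identities come from Biopython 1.88 alignments. Promoter sequences are from RefSeq. pandas 2.3.3, numpy 2.4.6, pysam 0.24.0, samtools 1.23.1, and matplotlib 3.10.9 under Python 3.11.15 were used.

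The alternatives tried were a pseudocount of 1 or 0.01, a minimum of 1 TPM or none, median-ratio rescaling, quantile normalization, no trend, a block for the replicate number, each aorta left out, genes that overlap the interval, protein-coding genes only, promoters of 1 and 5 kb, stricter q, the summit in place of the centre, and a larger overlap. Sums without the zinc-finger genes and over genes with few shared stretches were added after seeing the data. The same holds for the window 12 to 15 Mb before Prdm16.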

Additional observations from a re-analysis of the deposited data

How the results depend on the processing

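The count of genes called over the whole table was 168, and it was 110 with no minimum level, 411 after median-ratio rescaling, 392 after quantile normalization, and 48 without the trend; with 1 aorta left out it lay between 91 and 141. In the interval 8 genes were called; under the settings that kept all aortas the count was 6 to 9, with Zfp979 gained after quantile normalization, and with 1 aorta left out it was 5 to 6, of which 4 to 6 were lower and 0 to 1 higher, with Zfp993 gained without Prdm16SMKO aorta 2. Gm13212, Zfp982, Znf41-ps, and Zfp991 kept their call and direction under every alternative. Gm13156 was called in 3 of 13 alternatives, Zfp984 in 7 of 14, and Gm13238 and Zfp990 in 11 of 14, the losses of the last pair falling where an aorta of the expressing group was left out. Over the named genes, 209 alternative values kept their side of the threshold, 23 lost it, and 5 gained it. Same-numbered aortas are not pairs (correlations −0.0246, −0.07, and −0.00896 of their deviations); with the replicate number as a block 7 genes of the interval were called, without Gm13156. The summed log2 difference of −1.04 was −1.18 with protein-coding genes only, and −0.77 without the 19 zinc-finger genes but with the pseudogene Znf41-ps. With 1 aorta left out it lay between −1.11 and −0.93. With all genes that overlap the interval it was −0.64. This setting adds Vps13d and Mfn2, each at 33.1 TPM or more in every aorta, with log2 fold changes of −0.27 and −0.47. For the zinc-finger genes the summed log2 difference was −1.39, −1.13 with symbols starting with Zfp only, and between −1.53 and −1.28 with 1 aorta left out. The 10 peaks became 5 at a q of at most 0.001, without the zinc-finger exon peaks, and 1 at a q of at most 1e-05. Beyond the genes or peaks that a setting adds or drops, the causes of these shifts were not tested. TPM hold no depth, which limits what a gene listed at 0 can show.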
